A study of Homo sapiens with 4 samples.

Results

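The Polycomb repressive complex genes described here are 10 named members: EZH1, EZH2, EED, SUZ12 and JARID2 of the Polycomb repressive complex PRC2, RNF2, RING1, BMI1 and CBX7 of PRC1, and ASXL1 of the Polycomb deubiquitinase complex PR-DUB. They were chosen by gene symbol, with no measured value in the rule, and all 10 were found among the 23622 genes of the table. RNA was sequenced from MV4-11, an established human acute myeloid leukemia line that carries a KMT2A-AFF1 fusion and an internal tandem duplication of FLT3. The 4 libraries fell into 2 groups of 2, and the comparison asks how expression differs when IRF1, the interferon regulatory factor 1 gene, is knocked down. The sh-NC libraries are labelled as MV4-11 with genotype WT and no treatment, and by the study's methods carry a negative control hairpin. The sh-IRF1 libraries are labelled as an IRF1 knockdown of the same line, also with genotype WT. Both hairpin types were delivered by lentivirus in the pLKO.1 vector with puromycin selection. The labels do not say which IRF1 hairpin a library carries, nor whether the libraries come from separate cultures, so p-values measure only the spread between these libraries, which may be technical. The study lists these target sequences for the IRF1 hairpins, given 5′ to 3′ because they define the perturbation:

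sh-IRF1#1: gcaccagtgatctgtacaact
sh-IRF1#2: ggaaattacctgaggacatca

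Polycomb proteins keep developmental genes silent through marks on histone tails. PRC2 methylates histone H3 at lysine 27, with EZH1 or EZH2 as the catalytic subunit and EED and SUZ12 as the core that makes the enzyme active. PRC1 ubiquitinates histone H2A through RING1 or RNF2, each paired with a PCGF protein such as BMI1, and its canonical forms read the PRC2 mark through a CBX protein. PR-DUB, in which an ASXL protein activates the enzyme BAP1, removes the H2A ubiquitin. In blood, BMI1 and EZH2 are known for roles in stem cell self-renewal, and ASXL1 and EZH2 are mutated in myeloid disease.

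Each library held 17635908 to 18695337 reads assigned to genes, with 3.92 to 4.51% of them from mitochondrial genes. IRF1 itself fell from normalized counts of 785 and 738 in the sh-NC libraries to 430 and 432 in the sh-IRF1 libraries. It fell by 0.82 on the log2 scale (SE 0.0904, adjusted p = 1.69e-10, limma). A normalized count is a gene's read number after division by a library-wide factor. Of the defining markers checked, all 9 myeloid genes were analysed, from ITGAM at 118 to 236 up to FLT3 at 12634 to 17412 normalized counts. Of them, 4 were called higher in sh-IRF1 (SPI1, CSF3R, LYZ and ITGAM) and 4 lower (CEBPA, FLT3, CSF1R and MPO). The T cell gene CD3G did not exceed 2.81, no erythroid marker was among the genes analysed, and the epithelial keratin KRT18 had 158 to 206. The 4 B cell markers analysed summed to 101 and 130 in sh-NC and to 254 and 315 in sh-IRF1, with CD79A the 1 of the 4 called higher (log2 fold change 2.20, adjusted p = 4.46e-12, limma). The part of these marker differences in the Polycomb results was not tested. Because each library is a bulk extract, fewer cells of a kind and less RNA per cell cannot be told apart in any value below.

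All 10 members were expressed in every library and passed the filter of at least 10 normalized counts in at least 2 libraries, which 14120 genes passed. Their levels are compared per kilobase of annotated exons, since a longer gene gives more reads. In sh-NC (mean ± SD, n = 2), SUZ12 was highest at 547 ± 15.2 normalized counts per kb. It was followed by the ubiquitin ligase RING1 at 360 ± 55.7, JARID2 at 226 ± 6.25, ASXL1 at 202 ± 0.821 and the methyltransferase EZH2 at 167 ± 4.397. BMI1 at 118 ± 1.59 and RNF2 at 107 ± 14.8 came next, and their library values overlapped. EED at 57.5 ± 2.23, EZH1 at 34.7 ± 3.92 and CBX7 at 9.35 ± 0.981 closed the order. Every other pair of neighbours in this order was separated in sh-NC, the lowest library of the higher gene lying above the highest library of the lower. In sh-IRF1 the order was the same except that RNF2 (111 ± 19.8) stood above BMI1 (81.9 ± 4.77), with no overlap between them. The length is the union of all annotated exons, so a gene with many alternative exons is understated on this scale.

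**Figure D1:**
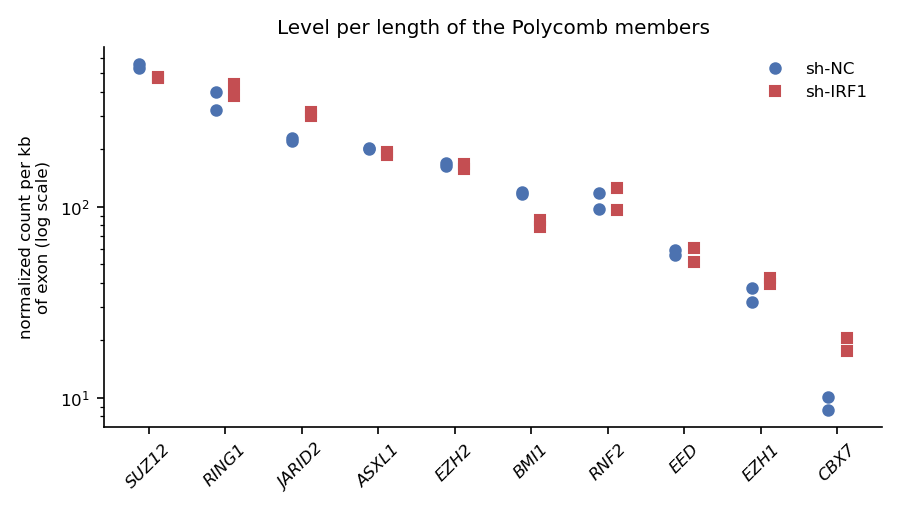
Normalized counts per kilobase of annotated exons on a log axis for the 10 Polycomb members, with 1 point per library of sh-NC and sh-IRF1. SUZ12 sits at the top at 547 in sh-NC and 476 in sh-IRF1 on average, and CBX7 at the bottom at 9.35 and 19.1.

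Between the groups, JARID2 and CBX7 rose and SUZ12 and BMI1 fell with IRF1 knockdown, while the other 6 members did not pass the test. A gene was called at an adjusted p under 0.05 (limma on the log2 of the normalized count plus a pseudocount of 1, Benjamini-Hochberg over all 14120 genes). Of all genes tested, 20.3% were called higher, 21.9% lower and 42.2% in either direction, so 4 of 10 members called lies near the background and is not a result about the set. At a log2 fold change beyond 0.5, CBX7 remained called higher and BMI1 lower, against 8.27% and 7.56% of all genes. The median log2 fold change of the members was 0.0014 and that of all genes tested -0.0019. In size alone, the median absolute change was 0.20 for the members and 0.26 for all genes tested. Both sh-IRF1 libraries lay above both sh-NC libraries for 3 members and below them for 3, and the groups overlapped for 4. Among all genes tested, 34.2% lay wholly above and 34.99% wholly below.

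**Figure D2:**
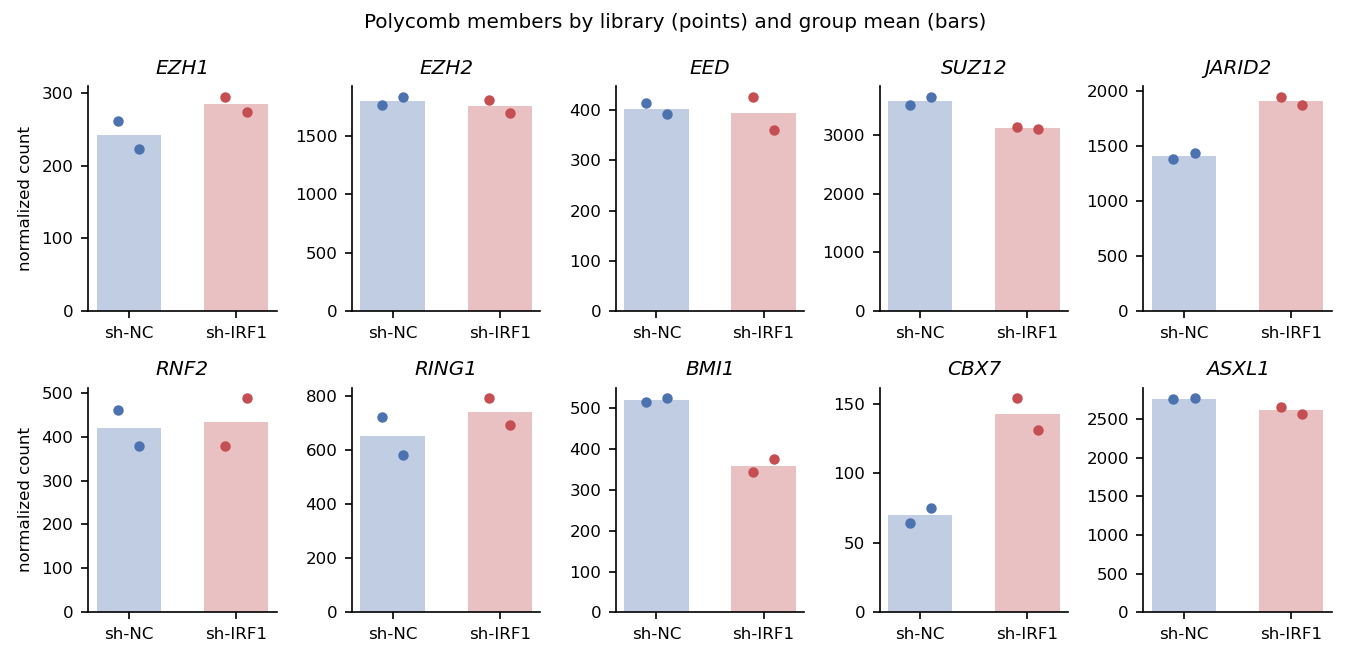
Normalized counts of each Polycomb member by library, with 1 panel per gene, 1 point per library and a bar from 0 for the group mean. The sh-IRF1 points lie clear of the sh-NC points for CBX7 (154 and 131 against 64.6 and 74.98) and BMI1 (345 and 375 against 515 and 525), and interleave for EZH2, EED, RNF2 and RING1.

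CBX7, the chromodomain protein that reads H3K27 methylation within canonical PRC1, had 64.6 and 74.98 normalized counts in sh-NC and 154 and 131 in sh-IRF1. Both knockdown libraries were higher than both controls, and their mean was 204% of the sh-NC mean. The log2 fold change was 1.02 (SE 0.212, 95% interval 0.59 to 1.45, adjusted p = 9.27e-05, limma). CBX7 is the lowest of the members, with 63 reads in the first sh-NC library. It lies on chromosome 22 at 39120167 to 39152680 (GRCh38, minus strand), and it shares 17.9% of its exonic bases with ENSG00000279833, a long non-coding gene on the opposite strand. That gene had 3.08 and 5.14 normalized counts in sh-NC and 7.96 and 19.7 in sh-IRF1. Whether reads were assigned by strand is not given in the sources used here, so the reads of the shared bases cannot be told apart.

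BMI1, the PCGF partner of the ligases in canonical PRC1, had 515 and 525 normalized counts in sh-NC and 345 and 375 in sh-IRF1. Both knockdown libraries were lower, at 69.2% of the control mean. The log2 fold change was -0.53 (SE 0.104, 95% interval -0.74 to -0.32, adjusted p = 3.69e-05, limma). The gene BMI1 lies on chromosome 10 at 22321099 to 22331484 (GRCh38, plus strand), and it shares 22.8% of its exonic bases with the readthrough gene COMMD3-BMI1, which was not analysed here.

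The stretches upstream of CBX7 and BMI1 are shown because these members had the largest changes in either direction. Each is the 250 bases before the annotated start (RefSeq, GRCh38.p14), 5′ to 3′ on the strand of the gene, with every CpG in capitals. The CBX7 stretch is chr22:39152681-39152930 on the minus strand and holds 41 CpGs. The BMI1 stretch is chr10:22320849-22321098 on the plus strand and holds 35 CpGs.

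CBX7 upstream: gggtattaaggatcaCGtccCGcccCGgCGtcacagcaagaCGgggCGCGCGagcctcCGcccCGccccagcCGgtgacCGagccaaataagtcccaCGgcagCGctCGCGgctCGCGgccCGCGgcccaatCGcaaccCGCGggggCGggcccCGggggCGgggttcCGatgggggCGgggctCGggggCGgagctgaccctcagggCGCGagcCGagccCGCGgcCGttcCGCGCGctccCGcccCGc
BMI1 upstream: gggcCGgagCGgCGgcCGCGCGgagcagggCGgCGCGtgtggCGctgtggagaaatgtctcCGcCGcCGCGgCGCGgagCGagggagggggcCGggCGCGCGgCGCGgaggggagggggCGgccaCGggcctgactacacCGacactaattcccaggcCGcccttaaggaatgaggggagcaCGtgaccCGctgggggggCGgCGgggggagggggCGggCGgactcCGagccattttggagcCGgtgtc

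Both stretches are dense in CpG, the dinucleotide that marks CpG islands, although these genes moved in opposite directions. RefSeq windows of 300 bases, from 250 before to 50 after a start, were matched for all 10 members, with 15 windows because some have several starts. The 15 windows held a median of 40 CpGs (range 16 to 65), and all 35116 windows of the table a median of 14. The EED window was the lowest and the second BMI1 window the highest. Searching 6 short motifs on both strands, chosen after the values were known, gave few matches. The IRF-type letters GAAANNGAA were in 0 of the 15 windows and 8.11% of all windows. Their shorter form GAAANNGA, which GAAANNGAA contains, was in 1 of 15 and 20.3% of all. That match lies in the first BMI1 window. The ETS-IRF-type letters GGAANNGAA were in 1 of 15, that of RING1, and 7.79% of all. The E-box CACGTG was in 1 of 15, the first BMI1 window printed above, where it begins at position -70 from the start, and in 7.26% of all. The ETS-type letters CCGGAAG were in 2 of 15, a single site covered by overlapping ASXL1 windows, and 10.3% of all, and the E2F-type letters TTTGGCGC were in 1 of 15, that of EZH2, and 0.652% of all. A match describes letters only.

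The ligases of PRC1 did not pass the test. RNF2, which with its paralog RING1 supplies the ubiquitin ligase activity, had 461 and 379 normalized counts in sh-NC and 378 and 487 in sh-IRF1. The groups overlapped fully, with a log2 fold change of 0.04 (95% interval -0.19 to 0.27, adjusted p = 0.816, limma). RING1 had 724 and 581 in sh-NC and 793 and 693 in sh-IRF1. Its groups overlapped, with a log2 fold change of 0.19 (SE 0.0907, 95% interval 0.0094 to 0.37, adjusted p = 0.0844, limma). Without the first sh-NC library, the higher of the controls, RING1 was called higher (0.35, adjusted p = 0.00213, limma), as it was after scaling to total reads (0.24, adjusted p = 0.0292, limma). Over all alternatives its adjusted p ranged from 0.00213 to 0.824.

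Within PRC2, SUZ12 and JARID2 passed the test in opposite directions. SUZ12, the scaffold of the core complex, had 3512 and 3653 normalized counts in sh-NC and 3128 and 3105 in sh-IRF1. Both knockdown libraries were lower, at 87.0% of the control mean. The log2 fold change was -0.20 (SE 0.0421, adjusted p = 0.000103, limma). Reads of its pseudogene SUZ12P1 came to 11.8% of the SUZ12 reads, and with them added the log2 fold change was -0.21 (adjusted p = 2.44e-05, limma). The adjusted p of SUZ12 ranged from 7.68e-06 to 0.00684 over all alternatives. JARID2, the accessory subunit that helps PRC2 bind chromatin, had 1385 and 1440 in sh-NC and 1949 and 1871 in sh-IRF1. Both knockdown libraries were higher, at 135% of the control mean, and JARID2 had the smallest p of the members (log2 fold change 0.44, SE 0.0558, adjusted p = 8.17e-09, limma).

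The catalytic subunits and EED gave no call. EZH2 had 1768 and 1835 in sh-NC and 1810 and 1695 in sh-IRF1, with overlapping groups and a log2 fold change of -0.04 (95% interval -0.15 to 0.069, adjusted p = 0.588, limma). EED, which binds the H3K27 mark and stimulates the enzyme, had 413 and 391 against 427 and 361, again overlapping, with -0.04 (95% interval -0.26 to 0.19, adjusted p = 0.823, limma). EZH1, the less active methyltransferase, had 262 and 223 in sh-NC and 295 and 275 in sh-IRF1. Its groups did not overlap, but the log2 fold change of 0.24 (95% interval -0.033 to 0.51, adjusted p = 0.155, limma) did not pass. For the PR-DUB subunit ASXL1, the values were 2753 and 2769 in sh-NC and 2657 and 2568 in sh-IRF1. These groups did not overlap either, and the log2 fold change of -0.08 (95% interval -0.17 to 0.011, adjusted p = 0.157, limma) did not pass.

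**Figure D3:**
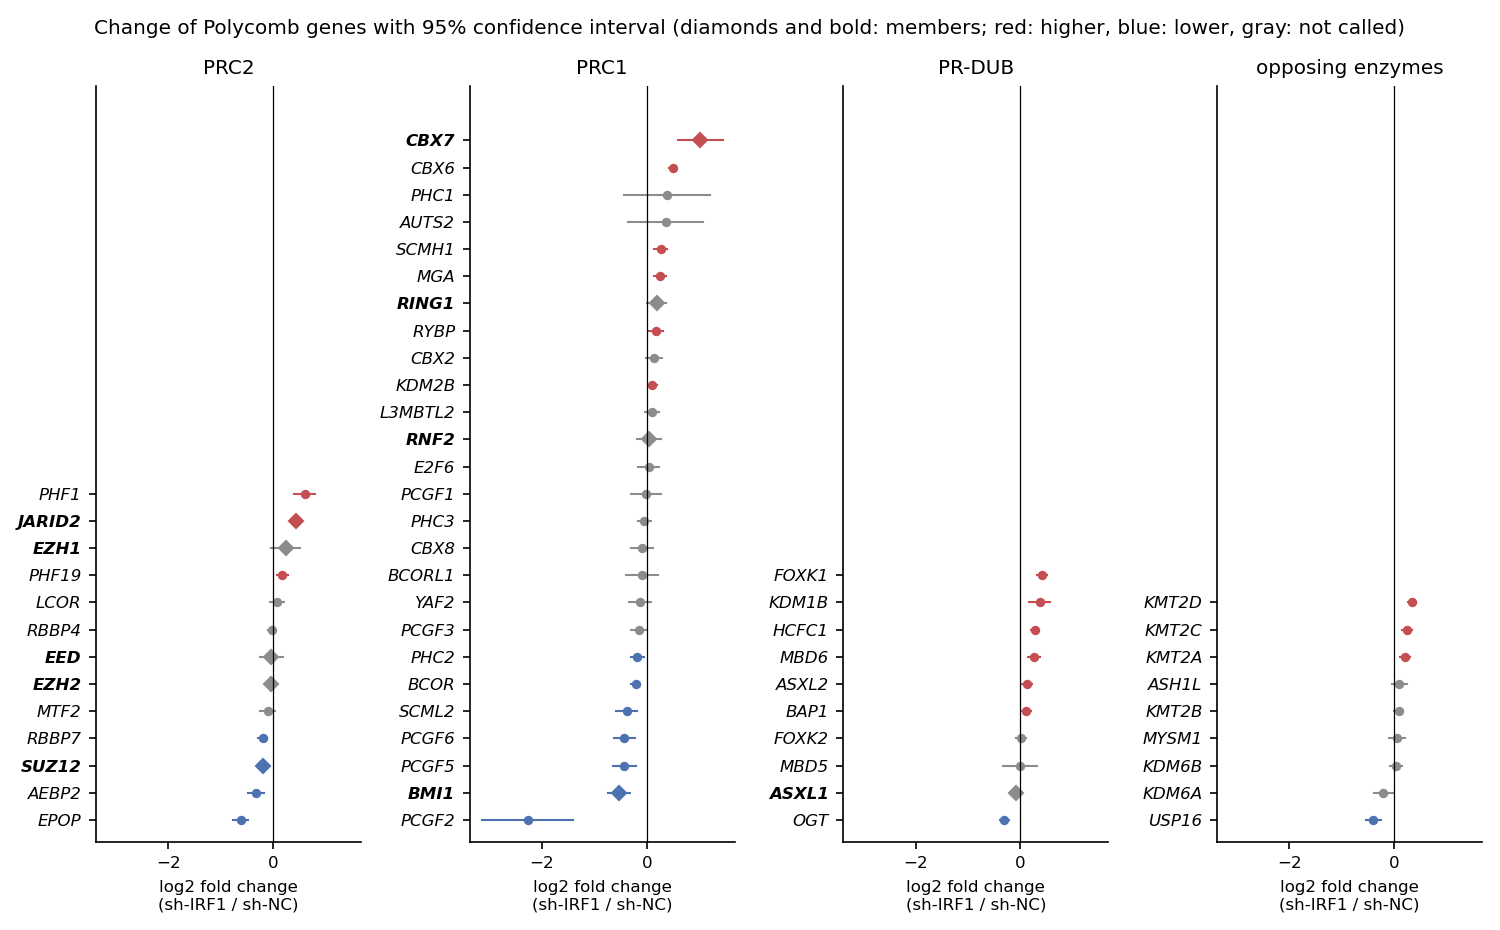
Log2 fold change of sh-IRF1 over sh-NC (horizontal axis) for the Polycomb members (diamonds) and other tested genes of the complexes and the opposing enzymes (circles), with 95% intervals from limma, red for called higher, blue for called lower and gray for not called. Among the members CBX7 (1.02) and JARID2 (0.44) lie to the right of 0 and BMI1 (-0.53) and SUZ12 (-0.20) to the left, with the intervals of EZH1, EZH2, EED, RNF2 and ASXL1 crossing 0.

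Paralogs that fill the same place in a complex were compared within each library, as the log2 ratio of their normalized counts. With 2 libraries against 2, 0.333 is the smallest p of a two-sided exact permutation test, so none of these 4 ratios could pass. The ratio of EZH2 to EZH1 was 2.75 and 3.04 in sh-NC and 2.61 and 2.62 in sh-IRF1, a difference of -0.28 (exact p = 0.333, adjusted p = 0.444). That of RNF2 to RING1 overlapped between the groups (difference -0.15, exact p = 1). The ratio of BMI1 to PCGF2, which takes the same place in PRC1, was 3.36 and 2.98 in sh-NC and 4.19 and 5.64 in sh-IRF1 (difference 1.75, exact p = 0.333, adjusted p = 0.444). That difference was 1.03 without the second sh-IRF1 library, 2.47 without the first and 1.12 with a pseudocount of 10. ASXL1 to ASXL2 went from 0.13 and 0.032 to -0.077 and -0.17 (difference -0.21, exact p = 0.333, adjusted p = 0.444).

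As a share of its family's summed level per length, BMI1 held 18.6 and 17.7% of the 6 PCGF genes in sh-NC and 15.4 and 16.0% in sh-IRF1, and the summed PCGF level averaged 652 and 522. PCGF2 went from 2.50 to 0.675% on average. EZH1 made up 17.2% of the EZH pair in the controls and 20.04% after knockdown, and ASXL1 50.6% and 47.0% of the pair with ASXL2. These shares were computed after the values were seen and carry no test.

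The other genes of the complexes were read from 5 lists, of which 49 genes were tested, with 16 called higher and 12 lower, beside 20.3% higher and 21.9% lower over all genes tested. Nothing particular to the lists is read from these counts. Among 8 PRC2 partners, 2 rose and 3 fell. PHF1, a Polycomb-like accessory protein, had 376 and 380 normalized counts in sh-NC and 590 and 561 in sh-IRF1 (log2 fold change 0.60, adjusted p = 1.89e-06, limma). Its paralog PHF19 rose less (0.17, adjusted p = 0.00645, limma) and lost the call without the second sh-IRF1 library (adjusted p = 0.0613, limma, the highest over its alternatives, with 0.000584 the lowest). EPOP, which links PRC2 to elongin, had 1027 and 1072 against 661 and 701 (-0.62, adjusted p = 1.82e-09, limma), and the histone-binding subunit RBBP7 fell by 0.20 (adjusted p = 2.00e-04, limma).

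Among 10 canonical PRC1 partners, 2 rose and 4 fell, where 20.3% of all genes tested rose and 21.9% fell. Nothing particular to this list is read from its count. CBX6, a chromodomain relative of CBX7, had 5487 and 5381 in sh-NC and 7552 and 7780 in sh-IRF1 (log2 fold change 0.50, adjusted p = 7.25e-17, limma). PCGF2 had 49.2 and 65.7 against 17.9 and 6.56 (-2.28, adjusted p = 2.42e-05, limma). The size of that change varied with the libraries and the pseudocount, at -1.61 without the second sh-IRF1 library, -2.94 without the first and -1.64 with a pseudocount of 10, and it was called in each of these. Of its exonic bases, 48.5% are shared with CISD3 on the opposite strand, which had 751 to 828 normalized counts in all 4 libraries. SCMH1 rose by 0.27 on the log2 scale (adjusted p = 0.000268, limma).

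Among 13 partners of variant PRC1, the forms that lack a CBX protein, 3 rose and 3 fell. With 20.3% of all genes tested called higher and 21.9% lower, nothing particular to this list is read from its count. MGA, the scaffold of the PCGF6 form, rose by 0.25 (adjusted p = 3.90e-04, limma), while PCGF6 itself fell (-0.43, adjusted p = 0.000303, limma). BCOR, a corepressor of the PCGF1 form, fell (-0.21, adjusted p = 3.18e-05, limma). RYBP, which stimulates the ligase, rose by 0.17 (adjusted p = 0.032, limma), a call lost in DESeq2, with no filter and without any 1 of the 4 libraries (adjusted p from 0.00645 to 0.204 over its alternatives).

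Among the 9 other PR-DUB genes tested, which include the ASXL1 paralog ASXL2, 6 rose and 1 fell, where 20.3% of all genes tested rose and 21.9% fell. Beyond a log2 fold change of 0.5, 0 of the 9 were called in either direction. Of the 6, ASXL2 (0.13, adjusted p = 0.0253, limma) and BAP1 (0.11, adjusted p = 0.0483, limma) rose least. Nothing particular to the list is read from its count. The transcription factor FOXK1 had 2339 and 2450 in sh-NC and 3105 and 3247 in sh-IRF1 (log2 fold change 0.41, adjusted p = 2.68e-10, limma). HCFC1 rose by 0.27 (adjusted p = 1.48e-09, limma), and the GlcNAc transferase OGT fell (-0.30, adjusted p = 2.08e-07, limma). The list's median log2 fold change was 0.13, against -0.0019 over all genes tested. Among 9 enzymes that oppose Polycomb, the H3K4 methyltransferases KMT2D (0.35, adjusted p = 5.52e-11, limma) and KMT2C (0.24, adjusted p = 3.22e-05, limma) were among 3 that rose. The H2A deubiquitinase USP16 was the 1 that fell (-0.39, adjusted p = 8.72e-06, limma).

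Of 25 genes known as Polycomb targets in other cells, 11 were analysed and 7 passed the filter, of which 2 rose and 2 fell. Over all genes tested, 20.3% were called higher and 21.9% lower, so nothing particular to the targets is read from this count. CDKN2A, a cell cycle inhibitor locus that BMI1 is known to silence, had 2393 and 2327 in sh-NC and 3043 and 2901 in sh-IRF1 (log2 fold change 0.33, adjusted p = 5.26e-08, limma). At 608 normalized counts per kb in sh-NC on average, CDKN2A was not silent in the controls. A link of its rise to BMI1 was not tested. Of its exonic bases, 15.3% are shared with the antisense gene CDKN2B-AS1, which had 27.7 and 34.9 normalized counts in sh-NC and 28.8 and 42.2 in sh-IRF1. CDKN2B, the neighbour of CDKN2A, had 55.4 and 22.6 in sh-NC against 97.5 and 81.5 in sh-IRF1 (1.31, adjusted p = 0.000477, limma). The value was 0.68 without the second sh-NC library, where the call was lost, and 1.93 without the first. PAX6, a developmental transcription factor, was low, at 41.0 and 58.5 against 7.96 and 35.6. It was called lower (-1.47, adjusted p = 0.0104, limma), and without the first sh-IRF1 library it was not (-0.45, adjusted p = 0.416, limma). Without the second sh-IRF1 library the value was -2.48. DESeq2 did not call it, nor did limma without the second sh-NC library. Over all alternatives its adjusted p ran from 0.00036 to 0.416. Of the PAX6 exonic bases, 25.4% are shared with ELP4 on the opposite strand. The other 4 targets analysed (GATA4, PAX3, LHX2 and WNT1) stayed under the filter. No protein level, histone mark or complex was measured in these libraries.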

How the data were processed

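RNA sequencing covered 2 sh-NC and 2 sh-IRF1 libraries. Per the labels, total RNA was taken up in Trizol and made into Illumina TruSeq libraries. The submitters' processing notes name HISAT2 2.0.5 and hg38. The counting tool, annotation and strand use are not given in the sources used here. The deposited table holds a normalized signal, in which the authors had scaled every gene's read count with a single size factor for the library. Reads were recovered as whole multiples of each library's step, which held for 100% of 94488 values (tolerance 0.01 read, largest distance 4.4e-05). In the first sh-IRF1 library that step, 0.995, is close to 1, but its values were not plain counts (HCFC1 at 10218.62 for 10273 recovered reads). The count tests there rest on the step read from its values. There were 0 other columns of per-sample values.

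The main test was limma (3.58.1, R 4.3.3, trend and robust shrinkage, prior df 43.0) on log2(value + 1), over 14120 genes with at least 10 in at least 2 libraries. Fold changes are on this scale, which understates changes of low genes. edgeR 4.0.16 and DESeq2 1.42.0 on the recovered reads, other scalings, filters and pseudocounts, the replicate numbers as a block and leaving out each library were alternatives. On simulated data (sh-IRF1 against sh-NC), limma recovered 78.8% of 85 genes changed by 0.5 on the log2 scale and 98.3% of 115 changed by 1. It made 15 false calls over 14026 genes. edgeR recovered 78.8% and 99.1%, with 12 false calls over 14026 genes, and DESeq2 56.5% and 92.2%, with 1 over 12898. The simulated spread was assumed, and the changed genes were drawn only from those of higher level. Far fewer genes were changed there than the 42.2% called in these libraries, so the rates need not hold for them.

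Symbols matched 23456 of 23622 identifiers. Positions, lengths and overlaps came from GENCODE 44 on GRCh38, promoters from RefSeq. The members and gene lists were chosen with earlier results of these data known. Named genes were IRF1, the members, and of each list the 2 smallest p in each direction among those called plus all called beyond 0.5, and some that this rule takes in are not reported here. Other genes, the family shares, pseudogene sums, motifs and promoters shown were chosen after values were seen.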

Additional observations from a re-analysis of the deposited data

How the results depend on the processing

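Refitting the 10 members under other tools, scalings, filters, pseudocounts, the block and left-out libraries kept direction and side of the threshold 142 times, changed a sign 7 times and added a call 2 times. JARID2, CBX7, SUZ12 and BMI1 were called in the same direction in all of theirs, with JARID2 between 0.41 and 0.48, CBX7 between 0.90 and 1.14, SUZ12 between -0.23 and -0.16 and BMI1 between -0.59 and -0.47. RING1 gained a call under total-read scaling and without the first sh-NC library, giving 3 members called higher there. Signs changed only for uncalled values. Total-read scaling gave EZH2 0.0039 and EED 0.0086. Leaving out 1 library each gave EZH2 -0.088 to 0.0070, EED -0.16 to 0.085, RNF2 -0.14 to 0.22 and the RNF2 to RING1 ratio -0.43 to 0.13. The cause was not tested. Requiring a log2 fold change beyond 0.5 left 1 member higher and 1 lower, and 2 higher and 5 lower of the other Polycomb genes, in place of 18 and 14. It left 8.27% of all genes tested higher and 7.56% lower, in place of 20.3% and 21.9%. Left-out libraries gave 2 to 3 members higher, 2 lower, and 13 to 15 higher and 12 to 14 lower of the other genes. For the other named genes, 328 refits kept their call and 14 lost it, among them PHF19, RYBP, CDKN2B and PAX6.

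Same-numbered libraries deviated from their group means with a correlation of -0.015 across genes. That value cannot tell whether they share a culture or a preparation. With the replicate block, 2 members were called higher and 2 lower, and 2903 and 3147 of all genes, against 2861 and 3092. With 2 libraries a group, the 95% intervals rest mostly on a variance shared across genes (prior df 43.0), and their width differs between members. A change as large as 0.51 lies inside the interval of EZH1, which was not called, while that of ASXL1, also not called, ran from -0.17 to 0.011.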

Other observations

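The nearest protein-coding genes analysed on either side of the 4 called members were looked up after the values were seen. Genes overlapping a member and non-coding genes were passed over. Next to BMI1, COMMD3, which ends 792 bases before it, averaged 93.4 ± 27.5 normalized counts in the controls and 92.1 ± 0.882 after knockdown (SD, n = 2), with a log2 fold change of 0.01 (adjusted p = 0.973, limma). PIP4K2A, 203369 bases away on the other side, gave -0.09 (adjusted p = 0.197, limma). On the sides of SUZ12, UTP6, 35298 bases away, fell from 1863 ± 18.4 to 1586 ± 38.4 (-0.23, adjusted p = 0.000453, limma), close to the -0.20 of SUZ12, and LRRC37B, 6344 bases away, gave 0.20 (adjusted p = 0.548, limma). For JARID2 the nearest such protein-coding gene on one side, CD83, lay 1109150 bases away and gave 0.28 (adjusted p = 0.07, limma). On its other side DTNBP1, 764 bases away, gave -0.15 (adjusted p = 0.378, limma). For CBX7, APOBEC3H, 16099 bases away, gave -1.35 (adjusted p = 0.0776, limma) at 18.5 and 6.82 normalized counts on average, and RPL3, 160201 bases away, fell (-0.16, adjusted p = 2.32e-07, limma), opposite in sign to CBX7.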
